A study of Zea mays with 18 samples.

Results

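HMG I/Y-2 (LOC541871), hda110 (LOC541972) and cenH3 (LOC542500) are chromatin genes of maize (Zea mays). Each was measured by 1 clone, found by its symbol or synonym, so they are 3 of the 7466 clones with values and 3 of the 489 clones with a gene name. The genes were chosen by measured values of these same arrays. HMG I/Y-2 had been called higher in o2 endosperm in B46 and in the average over all comparisons, hda110 in the average, and cenH3 stood out by its spread in B46. The o2 over wild-type values that chose them are therefore given as a description, with no test.

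The arrays compared messenger RNA of immature endosperm, 14 days after pollination, between opaque2 (o2) mutant and wild-type kernels. O2 is a bZIP factor that switches on storage protein genes in the endosperm. The 3 comparisons set B46 o2 against B46 wild type, M14 o2 against M14 wild type, both inbred lines, and a pool of 8 o2 mutant lines against a pool of the same 8 lines in wild-type form, called the pools or mixed here. The pooled lines were A619, B14A, B45, B46, B57, B66, B73 and M14, so B46 and M14 were themselves among them. The labels name neither the o2 allele nor how the mutant lines were bred. The design states 3 independent pairs of samples for every comparison. A pair went onto 2 arrays, the second with swapped dyes, and is counted as 1 replicate, which gives 9 replicates from 18 arrays. The number of arrays limits the precision, and a log ratio holds no expression level, so neither the tissue nor the abundance of a transcript could be checked against it.

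High-mobility-group I/Y proteins bind AT-rich DNA in the minor groove through short AT-hook motifs and bend or order it for other factors. Histone deacetylases remove acetyl groups from histone tails, a change that generally goes with less accessible chromatin. The centromeric histone cenH3 replaces ordinary histone H3 in the nucleosomes on which the kinetochore is built, and its supply is tied to dividing cells. In maize endosperm, the inner cells leave mitosis during grain filling and go on copying their DNA without dividing, while storage proteins and starch are laid down.

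Values are o2 over wild type in log units, centred on each array's median, with a positive value meaning higher in o2. The base of the deposited log is not stated, so a few values are also given as folds under base 2 and under the natural base. The direction is likely, not settled. It was read from the order in which the comparisons are named, and under it o2 itself averaged -0.42 and pdk1, a textbook o2 target, -1.07, each below 0 in 9 of 9 replicates. Correlations between arrays do not settle it. The 2 arrays of a swap correlated below 0 over all clones in every replicate as deposited (r between -0.35 and -0.018). Among arrays with wild type on Cy5 the lowest r was -0.34, between M14 and mixed replicate 1. Arrays of the same labelling have the same r in either reading, so it cannot bear on the direction. Each main value is therefore also given with the deposited numbers turned by the labelled dyes, the reading that applies if the table held Cy5 over Cy3. In that reading o2 averaged -0.084, pdk1 -0.12 and the zein gene z1C1_12 -0.084, all near 0, and 0 clones were called in the average. In the first reading z1C1_12 averaged -2.25, below 0 in 9 of 9 replicates, and 516 clones were called in the average. Had the table held o2 over wild type, every sign in the first reading would be the opposite.

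HMG I/Y-2 stood above 0 in every replicate of every comparison. In B46 the 3 replicates had 0.56, 0.66 and 0.37 log units, in M14 0.16, 0.088 and 0.077, and in the pools 0.28, 0.25 and 0.49. The B46 and mixed values overlapped, and the M14 values were lower. How many clones separate in this way was not counted. Between M14 and either of the other comparisons 0% of clones passed (limma, adjusted p under 0.05). The HMG I/Y-2 means were 0.53 ± 0.15 in B46, 0.11 ± 0.043 in M14 and 0.34 ± 0.13 in the pools (SD, n = 3 each). The B46 mean is 1.45-fold if the log is base 2 and 1.70-fold if it is natural. Averaged over the comparisons the value was 0.33 ± 0.052 (SE, 9 replicates), or 1.25-fold and 1.39-fold. By size, in either direction, this average ranked 1326 among the 7466 clones, and 92.7% of clones had a lower signed average. In B46 4.57% of all clones were called (0.911% higher), and in the average 6.91% were (1.97% higher), by limma at an adjusted p under 0.05 over the 7466 clones. HMG I/Y-2 was among both, but these calls chose it. Above 0 in 9 of 9 replicates were 2.75% of clones, a count that the choice by the average also favours.

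**Figure D1:**
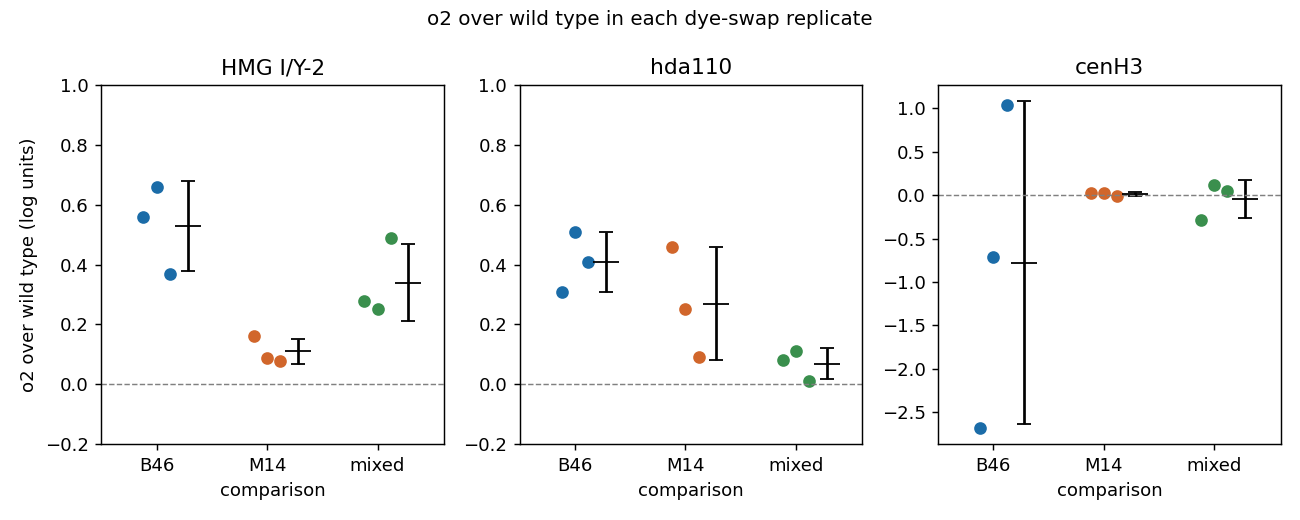
Log ratio of o2 over wild type (y axis, log units) of HMG I/Y-2, hda110 and cenH3 in each dye-swap replicate (points) of B46, M14 and mixed (x axis), with the mean and SD of 3 replicates in black; the cenH3 panel has a wider scale. HMG I/Y-2 and hda110 lie above 0 in all 9 replicates, while cenH3 spreads between -2.68 and 1.04 in B46.

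For HMG I/Y-2 the 2 arrays of a swap had the same sign in every B46 and mixed replicate, but not in M14 replicates 1 and 3. In B46 the arrays with o2 on Cy5 read 0.54, 0.45 and 0.35 in replicates 1 to 3, and those with wild type on Cy5 read 0.58, 0.88 and 0.38. All 6 were above 0, as for 5.36% of clones. In the mixed lines the arrays with o2 on Cy5 read 0.18, 0.38 and 0.22, and their partners 0.38, 0.12 and 0.75. Again all 6 were above 0, as for 3.47% of clones. In M14 the arrays with o2 on Cy5 stayed near 0, at -0.0084, 0.085 and -0.048, and those with wild type on Cy5 read 0.32, 0.091 and 0.20. Over all arrays 16 of 18 were above 0, a count reached by 2.36% of clones. Both arrays were above 0 in 7 of 9 replicates, a count reached by 2.92% of clones. The B46 and average values that chose the gene favour all these counts, so the shares are a description and no test. The gap between the 2 arrays was below the median gap of all clones in 7 of 9 replicates, the lowest at the 0.589 percentile (M14 replicate 2) and the highest at the 64.7 percentile (mixed replicate 3).

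Turned by the labelled dyes, the HMG I/Y-2 means were 0.083 ± 0.11 in B46, 0.098 ± 0.084 in M14 and 0.079 ± 0.20 in the pools (SD, n = 3 each). The average was 0.087 (95% interval -0.052 to 0.23), with 8 of 9 replicates above 0, and it did not pass (limma adjusted p = 0.742). In that reading 0 clones were called in the average, and 496 had an unadjusted p under 0.05.

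The gene hda110 also stood above 0 in every replicate, but its 2 arrays often had opposite signs. The replicates had 0.31, 0.51 and 0.41 log units in B46, 0.46, 0.25 and 0.092 in M14, and 0.083, 0.11 and 0.012 in the pools. The M14 values overlapped those of both other comparisons, while the B46 values were higher than the mixed ones. The share of clones with such a separation was not counted, and 0% of clones passed between B46 and the pools (limma, adjusted p under 0.05). The hda110 means were 0.41 ± 0.10 in B46, 0.27 ± 0.19 in M14 and 0.069 ± 0.051 in the pools (SD, n = 3 each). The average was 0.25 ± 0.053 (SE, 9 replicates), or 1.19-fold and 1.28-fold under those bases. A lower signed average was found for 88.8% of clones. It was among the 1.97% of clones called higher in the average, the call that chose it.

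**Figure D2:**
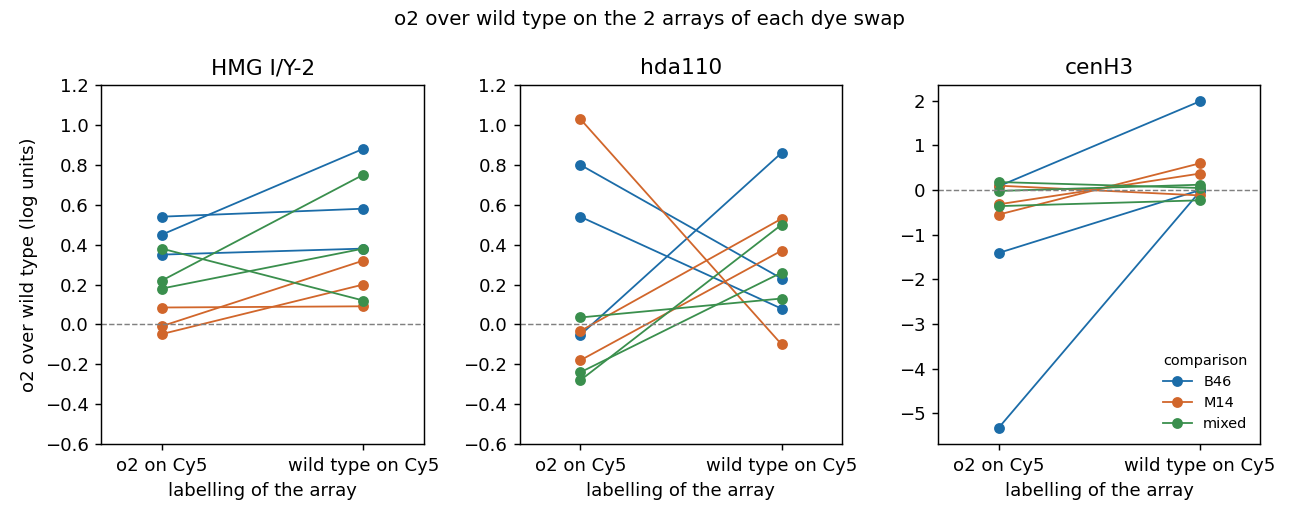
Log ratio of o2 over wild type (y axis, log units) on the array with o2 on Cy5 and on the array with wild type on Cy5 (x axis), joined by a line for each of the 9 replicates and coloured by comparison; the cenH3 panel has a wider scale. The lines of HMG I/Y-2 stay mostly above 0, those of hda110 cross, and for cenH3 an array of B46 replicate 1 reads -5.33.

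On single arrays hda110 was above 0 on 4 of 9 with o2 on Cy5 and on 8 of 9 with wild type on Cy5. In B46 the arrays with o2 on Cy5 read 0.54, 0.80 and -0.053, and their partners 0.079, 0.23 and 0.86. So B46 held the high array on one labelling in replicates 1 and 2 and on the other in replicate 3. In M14 the arrays with o2 on Cy5 read 1.03, -0.033 and -0.18, and their partners -0.10, 0.53 and 0.37. In the mixed lines they read 0.035, -0.28 and -0.24, against 0.13, 0.50 and 0.26 on their partners. There the mean of 0.069 is a balance of values of opposite sign in replicates 2 and 3. Both arrays were above 0 in 3 of 9 replicates, a count reached by 32.4% of clones. Among all clones the median number of replicates whose 2 arrays had 1 sign was 4. For hda110 it was 3 and for HMG I/Y-2 it was 7.

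Turned by the labelled dyes, hda110 averaged 0.069 (95% interval -0.21 to 0.35, limma adjusted p = 0.874), with 6 of 9 replicates above 0. The means were -0.020 ± 0.42 in B46, -0.0022 ± 0.49 in M14 and 0.23 ± 0.17 in the pools (SD, n = 3 each). The replicates of B46 and M14 spanned 0 in that reading, and the 3 mixed ones were above it.

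The centromeric histone cenH3 moved in no shared direction. Its replicates had -2.68, -0.71 and 1.04 log units in B46, 0.026, 0.026 and -0.012 in M14, and -0.29, 0.12 and 0.049 in the pools. The B46 replicates lay on both sides of all others, and the M14 ones lay close to 0. The means were -0.78 ± 1.86 in B46, 0.014 ± 0.022 in M14 and -0.043 ± 0.22 in the pools (SD, n = 3 each). The B46 spread was wider than that of 97.9% of clones in the same replicates, and the M14 spread wider than that of 1.00%. The average was -0.27 ± 0.32 (SE, 9 replicates), with 5 of 9 replicates above 0.

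A single array carried most of the B46 value. In replicate 1 the array with o2 on Cy5 read -5.33 and its partner -0.030. The same RNA pair thus gave a value below all but 0.696% of clones on one array and a value at the 48.1 percentile on the other. In replicate 2 the array with o2 on Cy5 read -1.41 and its partner -0.00053, and in replicate 3 they read 0.084 and 1.99. Each B46 swap therefore had 1 array near 0 and 1 far from it. With the -5.33 array left out, a choice made after seeing the data, the B46 mean was 0.10 ± 0.88 (SD, n = 3) and the average 0.023. Without B46 replicate 1 the B46 mean was 0.16, and without replicate 3 it was -1.69. In M14 the 2 arrays of a swap had opposite signs in all 3 replicates. There the arrays with o2 on Cy5 read -0.32, -0.55 and 0.099, against 0.37, 0.60 and -0.12 on their partners, and the 2 nearly cancelled in each replicate. In the mixed lines the 6 arrays lay between -0.36 and 0.18. None of the 3 clones held, on any array, the value that many clones of that array share.

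Turned by the labelled dyes, cenH3 stood at 2.65, 0.71 and 0.95 in the B46 replicates, all above 0, with a mean of 1.44 ± 1.06 (SD, n = 3). The same arrays that gave the wide B46 spread give these values, so they are a description with no test. In that reading 0.067% of clones were called in B46, and cenH3 was not among them. The means were 0.27 ± 0.35 in M14 and 0.021 ± 0.078 in the pools (SD, n = 3 each), and the average was 0.58, with 7 of 9 replicates above 0.

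**Figure D3:**
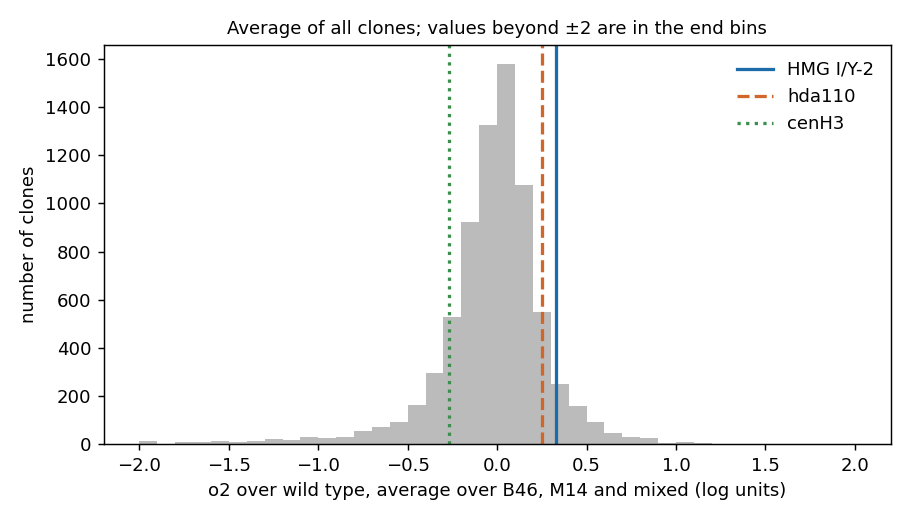
Number of clones (y axis) by the average of o2 over wild type over B46, M14 and mixed (x axis, log units, bins of 0.1) for all 7466 clones; the lines mark HMG I/Y-2 at 0.33, hda110 at 0.25 and cenH3 at -0.27. All 3 lie on the shoulders of the distribution, not in its tails.

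The difference between M14 and the pools is orthogonal to the B46 value and to the average, so for HMG I/Y-2 and hda110 it could be tested. Its error still rests on the pooled spread over all 9 replicates, which also entered the calls that chose the genes. For HMG I/Y-2 the M14 mean minus the mixed mean was -0.23 (95% interval -0.53 to 0.063, limma adjusted p = 0.86). For hda110 it was 0.20 (-0.11 to 0.50, adjusted p = 0.86), and 0.10 without M14 replicate 1. Neither difference passed, and both intervals leave room for one as large as the gene's average value. For cenH3 the difference was 0.056, given with no test because the B46 spread that singled the gene out sets its error. Over the whole array 0% of clones passed in this contrast (limma), with 376 at an unadjusted p under 0.05. Turned by the labelled dyes, the differences were 0.019 for HMG I/Y-2 and -0.23 for hda110 (limma adjusted p = 0.951 and 0.679), and 0.25 for cenH3, with no test.

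The 3 genes did not follow each other closely over the 9 replicates. Pearson's r was 0.30 between HMG I/Y-2 and hda110, -0.48 between HMG I/Y-2 and cenH3, and -0.11 between hda110 and cenH3, given as descriptions since replicates of a comparison share their lines. With each comparison's mean removed, r was 0.15, -0.43 and 0.24, and turned by the labelled dyes it was -0.44, -0.18 and -0.33, in the same order of pairs.

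Among the 488 other named clones, the nearest to HMG I/Y-2 over the 9 replicates were GPC1, a gene of cytosolic glyceraldehyde-3-phosphate dehydrogenase (r = 0.95), the fructokinase gene frk1 (r = 0.90) and the calmodulin gene CaM1 (r = 0.90). The median r over these clones was 0.07. With the comparison means removed, r was 0.77 for GPC1, 0.45 for frk1 and 0.90 for CaM1. The nearest to hda110 were CNX (r = 0.85), a clone of sgo1 (r = 0.81), whose shugoshin protein guards centromeric cohesion, and aprl8 (r = 0.80). With the comparison means removed, r was 0.68 for CNX, 0.66 for sgo1 and 0.55 for aprl8. As the 3 largest of 488 values over 9 replicates, the r given for each gene are high by selection. For cenH3 the nearest were a clone of the kinesin gene kin4 (r = 0.87), LOC541824 (r = 0.87) and GA20 (r = 0.85). Without B46 replicates 1 and 3, the 2 farthest from its median, r was 0.09 for kin4, 0.61 for LOC541824 and 0.84 for GA20, so the first likeness rested on those replicates. These likenesses belong to the first reading. Turned by the labelled dyes, r was 0.46 for GPC1, 0.21 for frk1 and 0.45 for CaM1 with HMG I/Y-2, and 0.51 for CNX, 0.73 for sgo1 and 0.60 for aprl8 with hda110. With cenH3 it was 0.06 for kin4, 0.73 for LOC541824 and 0.06 for GA20. None of the 9 was then among the 3 nearest of its gene, and the clone of sgo1, at rank 9, came closest.

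Of 20 other named chromatin genes, none was called in any comparison or in the average, with the clones of a gene averaged (limma, 7347 features; 2, 0 and 1 genes at an unadjusted p under 0.05 in B46, M14 and mixed, and 4 in the average). In the same fit 4.64% of features were called in B46, 0% in M14, 0% in mixed and 6.82% in the average, so a count of 0 in 20 is close to the background. The list held 10 genes above 0 and 10 below in the average, with a median of -0.0022 beside 0.0044 over all features.

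Of the 4 other histone deacetylase genes, 2 stood above 0 in the average, the sign of hda110, and 2 below. In the average hda106 stood at -0.29 ± 0.10 (SE, 9 replicates), with -0.40 ± 0.37 in B46, -0.20 ± 0.25 in M14 and -0.28 ± 0.29 in the pools (SD, n = 3 each). The gene hdt102, of the plant-specific HD2 type, stood at 0.18 ± 0.062 (SE), with 8 of 9 replicates above 0. A count of 8 or 9 was reached by 9.79% of clones. Closer to 0 were hda113 at -0.035 and hdt103 at 0.026, the mean of 2 clones at 0.093 and -0.041. The histone acetyltransferase genes hac106 and hac108, which encode the opposing activity, stood at -0.074 and -0.058.

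**Figure D4:**
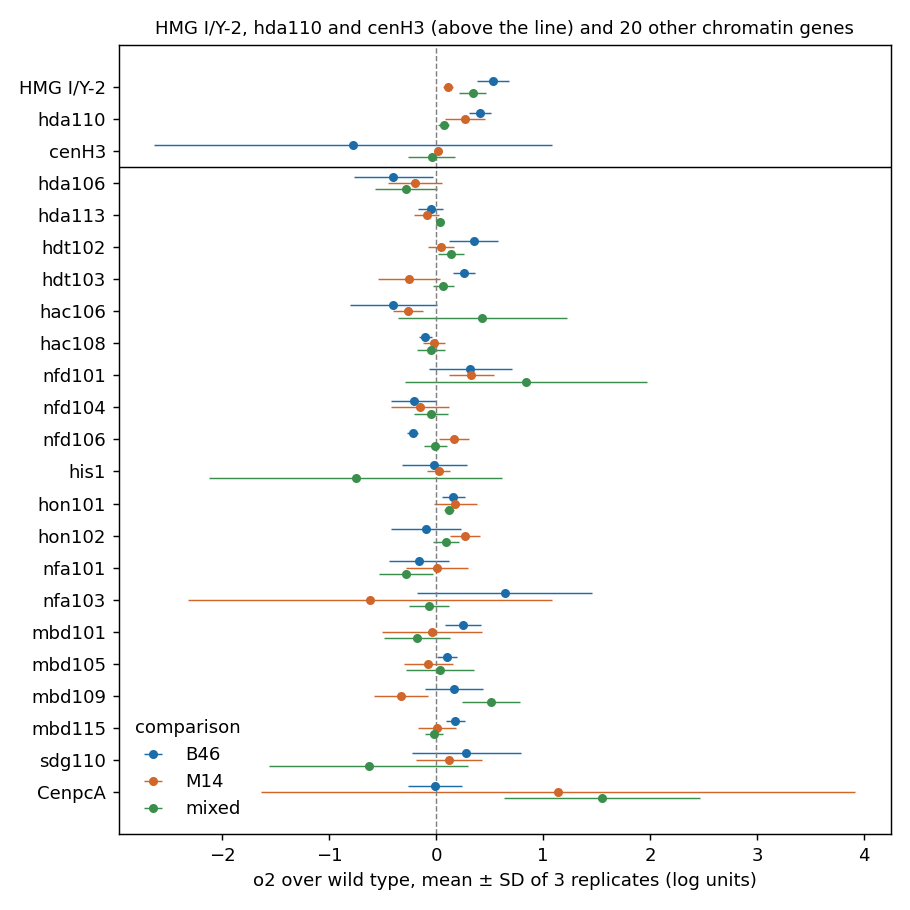
Log ratio of o2 over wild type (x axis, log units; mean and SD of 3 replicates in B46, M14 and mixed) for HMG I/Y-2, hda110 and cenH3 above the line and 20 other chromatin genes below it. The other genes fall on both sides of 0, and CenpcA reaches 1.55 in mixed and spans 0 in M14.

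The HMG-box genes, which encode DNA-bending proteins of another fold than HMG I/Y, were nfd101 at 0.50 ± 0.21, nfd104 at -0.14 ± 0.075 and nfd106 at -0.019 ± 0.050 (average ± SE). Of these nfd101 was above 0 in 9 of 9 replicates, as for 2.69% of features, between 0.0096 and 2.15 log units, and its mean was 0.32 ± 0.39 in B46, 0.33 ± 0.21 in M14 and 0.84 ± 1.13 in the pools (SD, n = 3 each). It did not pass (limma adjusted p = 0.233), and turned by the labelled dyes it stood at -0.082.

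Among linker histones, which bind DNA between nucleosomes, his1 stood at -0.25 ± 0.24, hon101 at 0.15 ± 0.056 and hon102 at 0.087 ± 0.076 (average ± SE). The 2 clones of hon101 disagreed: taken singly, one passed in the average at 0.28 (limma adjusted p = 0.0478) and the other stood at 0.018. It was the only call among the 24 clones of the list. The nucleosome assembly genes nfa101 and nfa103 stood at -0.14 and -0.015, the 4 genes of methyl-CpG-binding domain proteins between 0.010 and 0.12, and sdg110, of the SET domain family of histone methyltransferases, at -0.074.

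CenpcA, whose protein binds cenH3 nucleosomes at the inner kinetochore, had the largest average of the list at 0.89 ± 0.51 (SE, 9 replicates; limma adjusted p = 0.363). Its means were -0.011 ± 0.25 in B46, 1.14 ± 2.78 in M14 and 1.55 ± 0.92 in the pools (SD, n = 3 each), with single replicates between -0.49 and 4.35. The widest spread was thus in B46 for cenH3 and in M14 for CenpcA, which also spread more in the pools than in B46. Turned by the labelled dyes CenpcA averaged -0.46.

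A list of 5 DNA synthesis genes was looked at beside cenH3. In B46 all 5 were above 0, with pcna1, a sliding clamp of DNA polymerase, at 0.80 ± 0.50, orc1 of the origin recognition complex at 0.49 ± 0.58, pcna2 at 0.34 ± 0.26, the replicative helicase gene MCM7 at 0.18 ± 0.24 and MCM6 at 0.011 ± 0.12 (SD, n = 3). MCM6 is the mean of 2 clones, which stood at -0.12 and 0.14 there. Over all 7347 features 3754 were above 0 in B46. None of the 5 was called there, in M14, in mixed or in the average (limma), beside 4.64%, 0%, 0% and 6.82% of all features. At an unadjusted p under 0.05 were 2, 2, 0 and 2 of the 5, beside 1341, 890, 677 and 1566 of the 7347 features. Their medians were 0.34 in B46, 0.10 in M14 and -0.056 in the pools. Their part in the values of the 3 chromatin genes was not tested.

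Marker genes of other endosperm layers and of tissues that a dissection could carry over were set beside these values. Of 3 genes of the basal transfer layer, betl2 was called lower in the average (-1.10 ± 0.14 SE, limma adjusted p = 0.00551), while betl4 stood at 0.013 and mn1 at -0.022. The 2 aleurone genes averaged between -0.052 and 0.18, the 2 embryo genes between -0.075 and -0.063, and the 4 genes of green tissue between -0.28 and 0.11, none called. Of 4 starchy endosperm genes, z1C1_12, a zein gene, and o2 itself were called lower in the average, at -2.25 and -0.42. The zein gene dzs18 stood at -0.73. The waxy gene wx1, for the starch synthase of amylose, stood on the other side of 0 at 0.19, with 8 of 9 replicates above it. This wx1 value is the mean of 3 clones, which stood at 0.29, 0.26 and 0.018. Among single clones 9.79% had 8 or 9 of 9 replicates above 0. In the average 6.82% of all features were called, so 0 calls in a list of 2 or 4 genes is close to the background. The part of any of these in the chromatin values was not tested. In such bulk tissue, fewer cells of a type and less RNA per cell cannot be told apart. An arrayed clone may also bind transcripts of related genes, which was not tested.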

How the data were processed

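The 18 arrays, each with 2 dyes, formed 9 dye swaps in 3 comparisons of o2 with wild-type endosperm. ImaGene 4.1 measured spot and background intensities, per the labels. The authors deposited signed log ratios, between -9.70 and 11.46, with later processing, log base and direction not given in the sources used here. Intensities were not used here. Of 16560 rows, 14932 had values, and each clone held 2 neighbouring rows with identical values. Column medians lay between -0.22 and 0.11.

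Each array was centred on its median, turned so that o2 is on top, and the 2 arrays of a swap were averaged. All 9 replicates entered limma 3.58.1 in R 4.3.3 (lmFit, eBayes, a mean per comparison, no covariates; 6 residual and 1.51 prior degrees of freedom), tested on simulated data, with Benjamini-Hochberg adjustment over all clones, called at 0.05. Names came from an old platform annotation of 370 genes, of which 360 matched by identifier the gene table of Zm-B73-REFERENCE-NAM-5.0; no coordinates or sequences were used.

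The member genes, the lists and the rules were chosen with earlier results of these data known. Named genes were the members, o2 and pdk1, on the chromatin and DNA synthesis lists those called and the 3 largest averages in each direction, and the 3 clones most like each member by Pearson's r; other list genes are named, after their values were seen, to describe their group. List genes were picked by symbol. Alternatives were centring, array scaling, the dye-turned reading, trend and robust moderation, all 18 arrays, the replicate block, 2 filters, weights, each replicate left out, and each comparison alone.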

Additional observations from a re-analysis of the deposited data

How the results depend on the processing

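Under the dye-turned reading several values moved by over 1 SD. For HMG I/Y-2 these were B46 (0.083), mixed (0.079) and the average (0.087). For hda110 they were B46 (-0.020), M14 (-0.0022) and mixed (0.23), and for cenH3 B46 (1.44) and M14 (0.27). M14 minus mixed changed sign for HMG I/Y-2 (0.019) and hda110 (-0.23). By construction this reading flips the sign of 1 array of a swap before the 2 are averaged. Without centring hda110 in mixed stood at 0.12. Leaving out each replicate in turn, HMG I/Y-2 lay between 0.46 and 0.61 in B46, and hda110 between 0.22 and 0.28 in the average, between 0.17 and 0.36 in M14 and between 0.10 and 0.29 in M14 minus mixed (0.17 and 0.10 without M14 replicate 1). Over the same fits cenH3 lay between -1.69 and 0.16 in B46 and between -0.57 and 0.045 in the average (lowest without B46 replicate 3, highest without replicate 1), between -0.12 and 0.082 in mixed (0.082 without mixed replicate 1), and its M14 minus mixed between -0.069 (without mixed replicate 1) and 0.14. Both filters kept all 3 clones, and M14 minus mixed of HMG I/Y-2 and hda110 passed in no fit.

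Counts of called clones moved more. B46 (341) gave 5 turned by the labelled dyes, 159 with trend and robust options, 720 with all 18 arrays, 185 with the replicate block, 0 on its own replicates and between 1 and 314 with a replicate left out (1, 205 and 7 without B46 replicate 1, 2 and 3, and 223 and 222 without mixed replicate 2 and 3). The average (516) gave 0, 249 and 959 under the first 3 of these and between 298 and 499 with a replicate left out (327 without M14 replicate 1, 312 and 298 without mixed replicate 1 and 2). With trend and robust options the clones called higher in o2 fell from 68 to 18 in B46 and from 147 to 5 in the average. Whether HMG I/Y-2 and hda110 were still among them was not recorded. M14 (0; 917 at an unadjusted limma p under 0.05) gave 40 with arrays scaled, 277 with all 18 arrays and between 0 and 44 with a replicate left out (1 and 44 without M14 replicate 2 and 3), and mixed (0; 693) gave 58, 205 and between 0 and 2 (2 without mixed replicate 3). The chromatin list gave 1 call with clones counted singly. The cause of these moves was not tested. Deviations of same-numbered replicates correlated between -0.034 and 0.10, so the numbers were not taken to pair the samples. In this balanced design the replicate block leaves every mean as it is and can change only the error; with it the adjusted p of M14 minus mixed was 0.832 for both HMG I/Y-2 and hda110.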
